A study of Mus musculus with 8 samples.

Results

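Ion and metal solute carriers are the membrane proteins that move phosphate, iron, zinc, copper, magnesium, calcium, sodium, potassium, chloride, bicarbonate, protons and sulfate across cell membranes by coupled transport or facilitated passage. They were taken here as all genes of the deposited normalized set whose symbol names a member of the Slc4, Slc8, Slc9, Slc10, Slc11, Slc12, Slc20, Slc24, Slc26, Slc30, Slc31, Slc34, Slc39, Slc40 or Slc41 families. That gave 77 of 16889 genes. Another 22 genes of these families, among them all 3 members of Slc34, lay outside the normalized set, with at most 70 reads each over the 8 libraries and 2 with no read. Of the 77 members, 75 passed the filter on low counts and were tested, while *Slc24a2* and *Slc26a7* were too low. The symbol rule also takes in 3 proteins that are not transporters, namely the scaffolds *Slc9a3r1* and *Slc9a3r2* and the phosphoprotein *Slc4a1ap*.

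The libraries were made from brain ECs of P9 mouse pups, 4 Mutant and 4 Wild type, with 1 library per pup. Mutant pups (R26 GT-Map2k1-GFP/+; Tg-Cdh5CreER+/-) carried a MAP2K1 K57N cDNA at the *Rosa* locus behind a CAG promoter and a removable stop cassette, and a CreER driven by the endothelial *Cdh5* promoter. All pups received tamoxifen at P1, and ECs were pulled down with CD31 beads at P9, and the lines had been backcrossed to C57BL/6J. The Wild type libraries came from control pups, and the study's descriptions differ on whether a control carried the CreER transgene. The stop cassette was removed in only part of the isolated ECs, so a Mutant library averages ECs with and without MAP2K1 K57N. The term Mutant ECs below covers both kinds together, and a change in them cannot be assigned to either kind. No pup expressed normal MAP2K1 from *Rosa*. Between 24833373 and 34196955 reads per Mutant library and between 28146348 and 32208421 per Wild type library were counted on genes. The labels call the cells endothelial, and 10 endothelial markers summed to between 333764 and 398156 normalized counts in Mutant libraries and between 318235 and 382684 in Wild type libraries. Sums of 10 pericyte and smooth muscle markers were 5.53% to 11.2% of the endothelial sum in Mutant and 5.56% to 12.2% in Wild type libraries. For 8 fibroblast markers they were 8.73% to 12.2% and 7.12% to 9.78%. The part of those cells in the levels of the members was not tested. *Map2k1*, whose counts include the transgene, lay between 12660 and 18687 normalized counts in Mutant libraries and between 1502 and 1758 in Wild type libraries, in the direction of the labels.

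Normalized counts are reads scaled by edgeR's TMM factors to the mean library size, and FPKM also divides the reads by the length of the gene's exons, which allows levels of different genes to be compared. A gene was said to rise or fall where edgeR's quasi-likelihood test gave a Benjamini-Hochberg adjusted p under 0.05 over all 16887 genes tested, and it was called differentially expressed where the absolute log2 fold change (Mutant over Wild type) was also over 1. Errors of fold changes are standard errors of that fit. These are bulk libraries, in which fewer cells of a type and less RNA per cell cannot be told apart. They measure RNA only, so a protein said below to rise or fall stands for its transcript.

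Brain ECs form the blood-brain barrier, so metals and ions that enter or leave the brain parenchyma pass through transporters in their luminal and abluminal membranes. Iron arrives on transferrin, is taken up with the transferrin receptor, leaves the endosome through the divalent metal transporter and leaves the cell through ferroportin, the product of *Slc40a1*. Zinc enters the cytosol through Slc39 (ZIP) proteins and is moved out of it by Slc30 (ZnT) proteins, while Slc12, Slc4 and Slc9 proteins set cell volume and pH with gradients made by the sodium pump. Loss of the phosphate importer *Slc20a2* is a known cause of calcification around small brain vessels in people.

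The transcripts of ferroportin, transferrin receptor and ferritin carry iron-responsive elements, RNA hairpins bound by the iron regulatory proteins when iron is low. They are shown because the transcripts of iron entry (*Tfrc*) and iron exit (*Slc40a1*) both fell in Mutant ECs. The search took a C, 5 bases, a CAGTGN loop (capitals) and 5 bases that pair with the first 5, in GENCODE transcripts on GRCm38, written as DNA on the strand of the transcript. It matched 171 of 14239 tested protein-coding genes (1.20%) and 3 of the 75 members searched. The *Slc40a1* element lies in the 5′ UTR at chr1:45925465-45925493 on the minus strand. Those of *Fth1* (chr19:9982732-9982760, plus strand) and *Ftl1* (chr7:45459779-45459807, minus strand) also lie in the 5′ UTR. *Tfrc* had 4 matches in its 3′ UTR on the plus strand, the first at chr16:32631219-32631247 and the last at chr16:32631710-32631738. The other members with a match were *Slc10a7*, in the 3′ UTR, and *Slc4a3*, in the coding part. The search misses hairpins with a bulge or an unpaired base among the 5. *Slc11a2* had no match, which does not show that it lacks an element, and *Tfrc* may hold more than those matched. A match is a description of the letters and not of binding. The part of an element in the fall of *Tfrc* or *Slc40a1* was not tested.
Slc40a1: caacttcagctaCAGTGTtagctaagttt
Fth1: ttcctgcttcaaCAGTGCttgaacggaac
Ftl1: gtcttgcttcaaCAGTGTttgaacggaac
Tfrc, first element: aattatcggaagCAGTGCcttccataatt
Tfrc, last element: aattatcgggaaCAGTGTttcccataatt

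The zinc exporter *Slc30a1* and the metallothionein *Mt1* are textbook targets of the zinc sensor MTF1, which binds metal response elements, and their promoters are shown because *Slc30a1* fell and *Mt1* did not. The sequences are RefSeq promoters on GRCm38.p6, 250 bases before to 50 after the annotated start, with the element core (TGCACNC or TGCGCNC, searched on both strands) in capitals. *Slc30a1* had 2 matches in chr1:191906531-191906830 and *Mt1* had 3 in chr8:94178839-94179138, both on the plus strand. *Slc30a4*, which was called higher, and *Slc30a10*, which gave no adjusted p under 0.05, had 3 each. Of all 32851 promoters, 25.7% held at least 1 match, 7.11% at least 2 and 1.97% at least 3. At least 1 match was held by 32 of 75 promoters of the 59 members found in the RefSeq table (42.7%). These shares are of unlike sets, because all promoters were not limited to genes of the normalized set. Some members also have more than 1 promoter, and no test compared the shares.
Slc30a1: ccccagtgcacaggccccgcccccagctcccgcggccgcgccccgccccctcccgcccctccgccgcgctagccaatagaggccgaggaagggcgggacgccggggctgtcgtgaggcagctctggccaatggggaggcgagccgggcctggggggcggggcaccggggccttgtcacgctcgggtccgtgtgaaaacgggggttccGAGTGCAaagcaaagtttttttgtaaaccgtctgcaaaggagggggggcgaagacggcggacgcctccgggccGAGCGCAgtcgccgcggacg
Mt1: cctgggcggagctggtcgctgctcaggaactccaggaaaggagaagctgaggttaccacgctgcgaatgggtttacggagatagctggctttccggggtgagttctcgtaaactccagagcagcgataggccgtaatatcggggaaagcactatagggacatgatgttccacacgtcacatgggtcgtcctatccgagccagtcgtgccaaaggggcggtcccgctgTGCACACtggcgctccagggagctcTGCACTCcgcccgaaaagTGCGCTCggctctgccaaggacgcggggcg

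Ion and metal carriers moved in both directions. Of the 75 tested, 12 were called higher in Mutant libraries and 6 lower, beside 5.90% of all genes tested called higher and 8.05% called lower. That is 16.0% and 8.0% of the members, or 18 of 75 in either direction beside 14.0% of all genes. Without the fold limit, 24 members rose and 14 fell (21.5% and 22.9% of all genes rose and fell, 44.4% in all), and 37 gave no adjusted p under 0.05. The 4 Mutant libraries lay above the 4 Wild type libraries in 25 members and below them in 15, beside 20.6% and 21.9% of all genes and 42.5% for both directions. The median log2 fold change of the members was 0.03, and that of all genes was -0.02. Without the 3 genes that are not transporters, 12 of 72 were called higher and 4 lower. The counts by family and by partner list below are to be read beside the shares of all genes given here. The library descriptions begin with 3 different number strings, each with as many Mutant as Wild type libraries. The study matched Wild type to Mutant pups within litters, but the labels do not say that a string is a litter. All 18 members called kept their direction within each string, as did 2295 of all 2356 genes called, where 1 string holds 2 libraries of each group and the others 1, too few for a test.

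**Figure D1:**
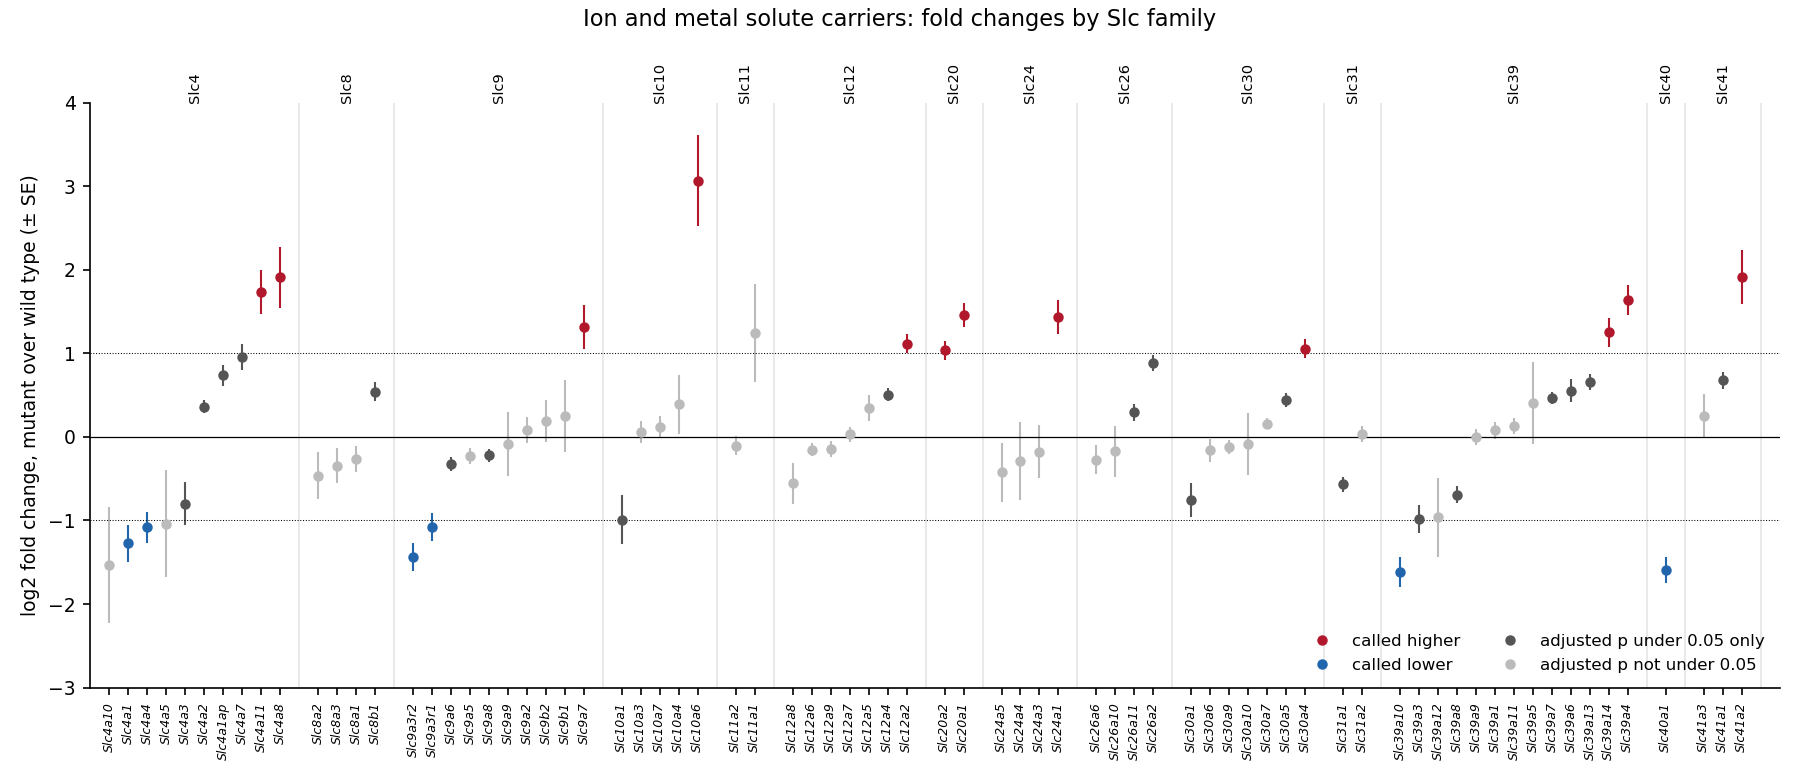
Log2 fold change of the tested members, of which 1 of 75 is not shown (Mutant over Wild type, points; bars are SE), ordered by Slc family, with dotted lines at -1 and 1. The 12 members called higher range from 1.03 (*Slc20a2*) to 3.06 (*Slc10a6*) and the 6 called lower from -1.08 to -1.62 (*Slc39a10*).

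Levels spanned several orders of magnitude, with 50 members over 1 FPKM and 20 over 10 FPKM as a mean of the 8 libraries. In Wild type ECs the highest transporter levels were those of *Slc39a10* (100.5 ± 9.38 FPKM, SD, n = 4), *Slc31a1* (87.8 ± 6.53), *Slc30a1* (80.1 ± 21.8), *Slc39a1* (73.3 ± 8.20), *Slc40a1* (69.1 ± 5.72) and *Slc39a8* (68.9 ± 4.08), which all carry metals. The scaffold *Slc9a3r2* stood above them at 181 ± 30.3 FPKM. In Mutant ECs the phosphate importer *Slc20a1* came first at 109.8 ± 19.9 FPKM, from rank 8 in Wild type ECs. *Slc39a10* went from rank 2 to rank 9 and *Slc40a1* from rank 6 to rank 12. *Slc39a1*, the metal importer that did not change, took rank 2 at 77.4 ± 8.16 FPKM. The neighbours *Slc40a1* and *Slc39a8* in Wild type ECs did not differ beyond their SD.

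**Figure D2:**
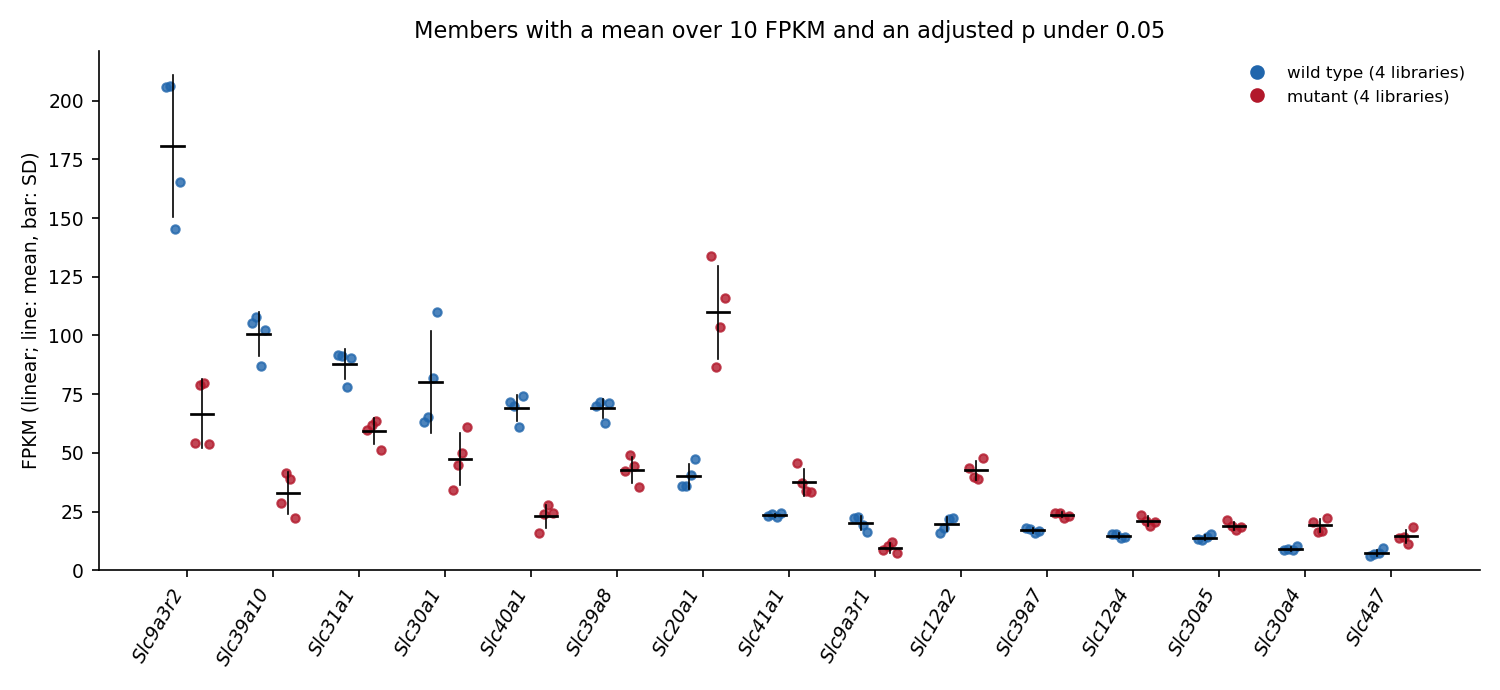
FPKM (linear axis) of the members with a mean over 10 FPKM and an adjusted p under 0.05, 1 point per library, with the mean (line) and SD (bar) of the 4 Wild type and 4 Mutant libraries. *Slc20a1* and *Slc12a2* lie higher in all Mutant libraries, and *Slc9a3r2*, *Slc39a10* and *Slc40a1* lie lower in all of them.

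Both sodium-phosphate importers of the Slc20 family rose. *Slc20a1* (chromosome 2, 129198764 to 129211616, plus strand), which encodes PiT-1, had 22073, 14276, 17105 and 19124 normalized counts in the Mutant libraries and 5951, 5942, 6711 and 7834 in the Wild type libraries. The lowest Mutant library was thus above the highest Wild type library. Its log2 fold change was 1.46 ± 0.14, a 2.75-fold rise (adjusted p = 3.39e-05, edgeR's quasi-likelihood test). It shares 8.10% of its exon length with *9830144P21Rik* on the opposite strand, whose mean was 1224 normalized counts. *Slc20a2* (chromosome 8, 22476788 to 22569612, plus strand), which encodes PiT-2, was far less abundant at 5.17 ± 0.78 FPKM in Mutant and 2.52 ± 0.22 in Wild type ECs. Its normalized counts were 970, 939, 772 and 1123 in Mutant libraries against 447, 487, 506 and 418 in Wild type libraries. The groups did not overlap, and the log2 fold change was 1.03 ± 0.12 (adjusted p = 9.55e-05, edgeR). The sodium-phosphate cotransporters of Slc34, which act mainly in kidney and gut, were at 12, 1 and 19 reads over all libraries. Of 6 partner genes of phosphate handling, 3 were called, beside 14.0% of all genes. *Alpl*, the phosphatase that frees phosphate from pyrophosphate, fell by 1.75 on the log2 scale, *Jam2*, a junction protein linked to the same calcification disorder as *Slc20a2*, fell by 1.36, and *Enpp1*, which makes pyrophosphate, rose by 1.10 ± 0.21 (0.92 without Mutant replicate 3). *Ank*, the exporter of pyrophosphate precursors, was at 1426 ± 168 normalized counts in Mutant and 1040 ± 38 in Wild type ECs.

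The transcript of ferroportin fell together with that of the transferrin receptor. *Slc40a1* (chromosome 1, 45908068 to 45926523, minus strand), the only known cellular iron exporter, had 4236, 6329, 7366 and 6477 normalized counts in the Mutant libraries and 19061, 18623, 16231 and 19736 in the Wild type libraries. All Mutant libraries were under the lowest Wild type library. The log2 fold change was -1.59 ± 0.15, or 3.02-fold lower in Mutant ECs (adjusted p = 3.12e-05, edgeR's quasi-likelihood test). *Tfrc* fell by more, from 70764, 76461, 62668 and 75957 normalized counts in the Wild type libraries to 4548, 13008, 19308 and 5600 in the Mutant libraries, a log2 fold change of -2.75 ± 0.40. Its spread among Mutant libraries was wide, with replicates 1 and 4 lowest. Immature red cells also express *Tfrc*, and 8 red blood cell markers summed to between 2593 and 8460 normalized counts in Mutant libraries and between 15745 and 27308 in Wild type libraries. The part of those cells in the fall was not tested.

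The transcript of the endosomal iron exit did not show a change. *Slc11a2*, the divalent metal transporter DMT1, lay between 3021 and 4050 normalized counts in Mutant and between 3239 and 4445 in Wild type libraries, with a log2 fold change of -0.10 and a 95% interval from -0.37 to 0.16. *Slc11a1*, its relative in phagocytes, had 167, 169, 682 and 735 normalized counts in Mutant libraries and 97.4, 108, 389 and 147 in Wild type libraries, which overlap. The sum of 10 microglia and macrophage markers was 3366, 4245, 13438 and 10411 in the Mutant and 3818, 5528, 14689 and 3511 in the Wild type libraries, in the same order of replicates. Mutant replicates 3 and 4 and Wild type replicate 3 had the highest *Slc11a1* values and the highest sums. Their order differed, as Wild type replicate 3 had the highest sum but less *Slc11a1* than both of those Mutant libraries. Wild type replicate 4 had the lowest sum of its group and the second highest *Slc11a1* in it. The part of microglia and macrophages in the *Slc11a1* values was not tested.

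**Figure D3:**
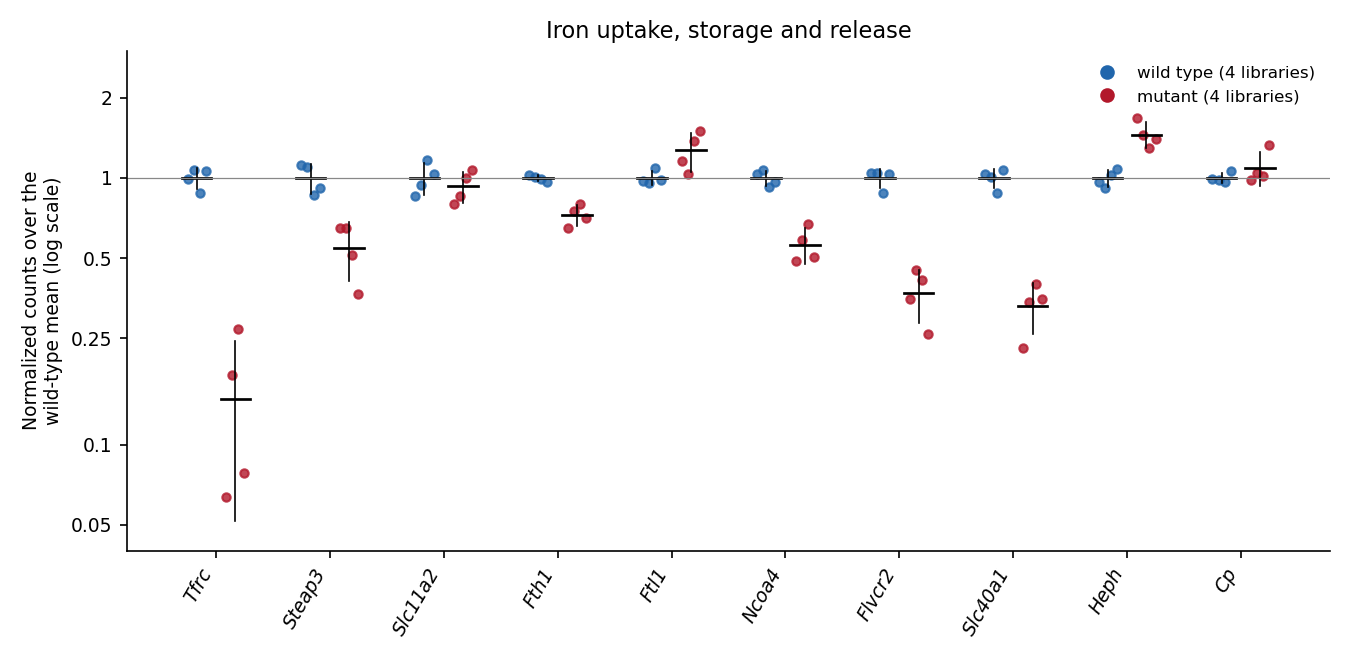
Normalized counts of 10 genes of iron uptake, storage and release over each gene's Wild type mean (log axis), 1 point per library, with mean (line) and SD (bar). *Tfrc* and *Slc40a1* lie under 1 in all 4 Mutant libraries, and the Mutant and Wild type points of *Slc11a2* and *Cp* overlap.

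Of the 23 iron-handling partner genes tested, 2 were called higher and 3 lower, and 8 rose and 7 fell without the fold limit. The 3 lower ones were *Tfrc*, *Flvcr2* (-1.44 ± 0.15), a choline and heme-linked transporter of brain ECs, and *Cybrd1* (-1.63 ± 0.32), a ferrireductase, at a mean of only 25.5 normalized counts in Mutant ECs. *Trf*, which encodes transferrin, rose from 1021 ± 117 to 3403 ± 782 normalized counts (log2 fold change 1.74 ± 0.15). Oligodendrocytes are a main brain source of transferrin. Of their 10 markers, 9 were called lower, and the 10 summed to between 4608 and 11254 normalized counts in Wild type and between 2714 and 4132 in Mutant libraries. Their part in the *Trf* values was not tested. *Hmox1*, which frees iron from heme, was called higher (1.22 ± 0.44, adjusted p = 0.0455, edgeR), but its groups overlapped, and over 15 other fits the adjusted p ranged from 0.000113 with the label string as a block to 0.140 without Mutant replicate 4, and was over 0.05 in 8. Of the ferroxidases that oxidize exported iron for transferrin, *Heph* rose by 0.54 ± 0.10, and *Cp* had 1618 ± 234 normalized counts in Mutant and 1482 ± 62.3 in Wild type ECs (adjusted p = 0.311, edgeR). Ferritin chains went opposite ways in the fit, *Fth1* falling by 0.46 and *Ftl1* rising by 0.34 on the log2 scale, both under the fold limit.

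Among the zinc importers of Slc39, 5 of 13 tested rose and 3 fell, beside 21.5% and 22.9% of all genes. Of the 3 most abundant in Wild type ECs, ZIP10 and ZIP8 fell and ZIP1 gave no adjusted p under 0.05. *Slc39a10* (chromosome 1, 46807544 to 46892852, minus strand), ZIP10, had 5134, 7498, 6977 and 4035 normalized counts in Mutant libraries against 18972, 19432, 15663 and 18457 in Wild type libraries. No Mutant library reached the lowest Wild type library. The log2 fold change was -1.62 ± 0.18, 3.07-fold lower (adjusted p = 7.28e-05, edgeR's quasi-likelihood test). *Slc39a8* (chromosome 3, 135825279 to 135888572, plus strand), ZIP8, which takes up manganese, zinc and iron, had 9575, 11091, 10027 and 8003 normalized counts in Mutant and 15910, 16240, 14262 and 16134 in Wild type libraries. It fell by 0.69 on the log2 scale without overlap. *Slc39a3*, ZIP3, fell by 0.98, from 8.14 ± 1.54 to 4.13 ± 0.79 FPKM. *Slc39a1*, ZIP1, lay at 77.4 ± 8.16 FPKM in Mutant and 73.3 ± 8.20 in Wild type ECs, with a 95% interval of the log2 fold change from -0.15 to 0.31.

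Other zinc importers were higher in Mutant ECs, from lower levels. *Slc39a14* (chromosome 14, 70303469 to 70351425, minus strand), ZIP14, which also carries manganese and iron not bound to transferrin, had 628, 480, 493 and 752 normalized counts in Mutant libraries against 207, 236, 303 and 244 in Wild type libraries. This was a log2 fold change of 1.25 ± 0.17. *Slc39a4*, ZIP4, the intestinal zinc importer, rose from between 57 and 84.5 to between 188 and 246 normalized counts (1.64 ± 0.18). Both had non-overlapping groups and both stayed far under ZIP8 per length, at 1.88 and 3.29 FPKM in Mutant ECs. *Slc39a6*, ZIP6, the closest relative of ZIP10, rose by 0.55 ± 0.13 while ZIP10 fell. Importers of the secretory pathway rose by less, *Slc39a13* by 0.66 ± 0.10 and *Slc39a7* by 0.47 ± 0.07. The exons of *Slc39a7* share 80.1% of their length with the gene model *Gm20427*, so that its counts are uncertain.

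Of the 7 Slc30 members tested, 2 rose and 1 fell, beside 21.5% and 22.9% of all genes. *Slc30a1* (chromosome 1, 191906767 to 191913247, plus strand), ZnT1, the exporter of the plasma membrane, had 5288, 6966, 7724 and 9453 normalized counts in Mutant and 9788, 10103, 12737 and 17098 in Wild type libraries. It fell by 0.76 on the log2 scale, and the highest Mutant library came close to the lowest Wild type library (adjusted p = 0.0124, edgeR's quasi-likelihood test). *Slc30a4*, ZnT4, of endosomes and lysosomes, was called higher, with 3358, 2668, 2734 and 3640 normalized counts in Mutant and 1376, 1480, 1417 and 1687 in Wild type libraries (1.06 ± 0.11). *Slc30a5*, ZnT5, which supplies zinc to enzymes in the secretory pathway, rose by 0.44 ± 0.08. The remaining 4 tested members of Slc30 gave no adjusted p under 0.05. The metallothioneins *Mt1* (521 ± 257 normalized counts in Mutant, 293 ± 121 in Wild type ECs) and *Mt2* (197 ± 118 and 113 ± 58.5) overlapped between the groups. Their adjusted p was 0.0749 and 0.167 with edgeR, and over 15 other fits it ranged from 0.0171 to 0.233 and from 0.00174 to 0.513, where a block lowered both. With the replicate number as a block it was 0.0296 and 0.00394, and with the label string 0.0188 and 0.00174. Of 5 genes of zinc buffering and sensing tested, 1 rose and none was called.

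**Figure D4:**
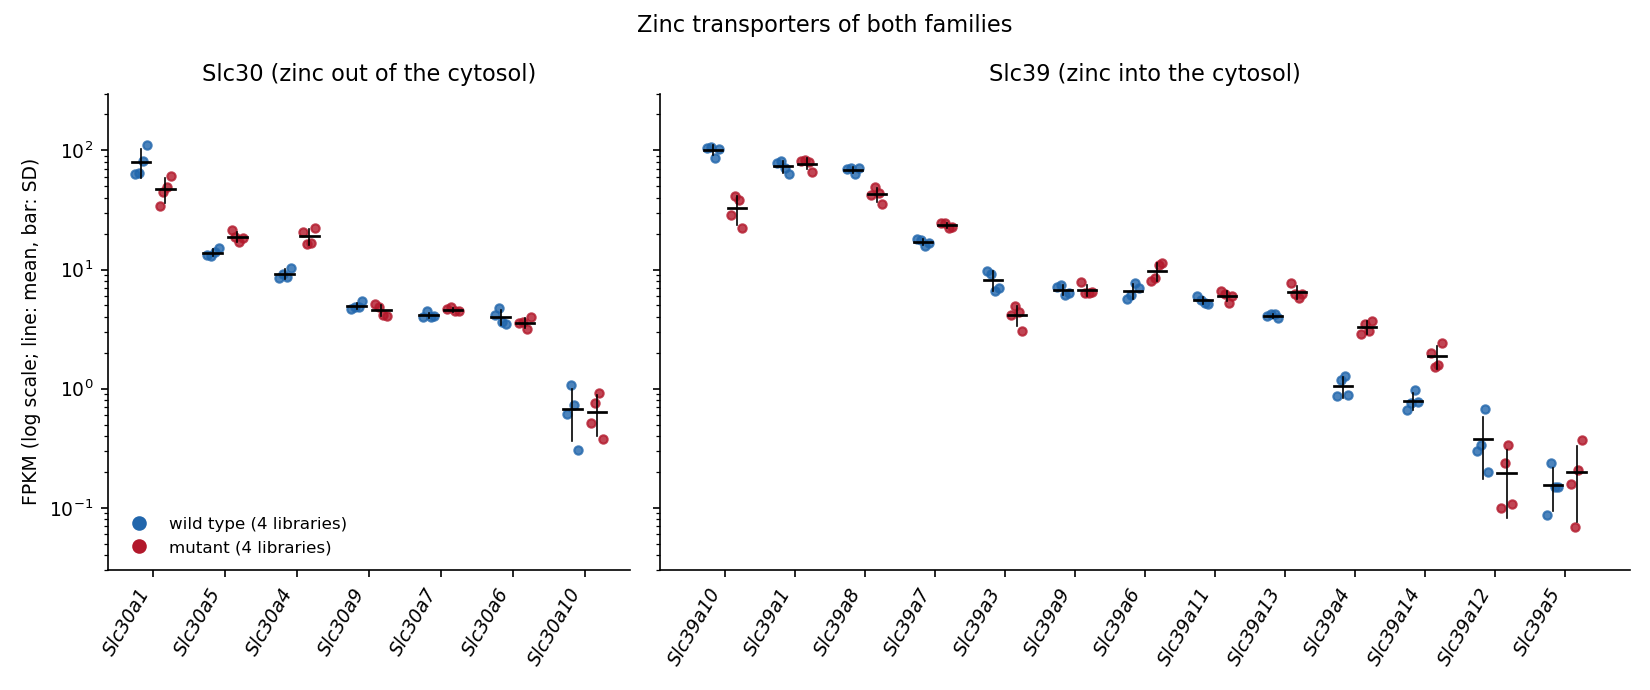
FPKM (log axis) of the 7 Slc30 and 13 Slc39 members in each library, with mean (line) and SD (bar) of the 4 Wild type and 4 Mutant libraries, ordered by Wild type level. *Slc30a1*, *Slc39a10*, *Slc39a8* and *Slc39a3* lie lower in the Mutant libraries and *Slc30a4*, *Slc39a14* and *Slc39a4* higher.

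The copper importer *Slc31a1* (chromosome 4, 62360727 to 62391769, plus strand), CTR1, had 7573, 7862, 8071 and 6481 normalized counts in Mutant libraries and 11599, 11544, 9885 and 11470 in Wild type libraries. It fell by 0.57 on the log2 scale, 1.48-fold, with no overlap (adjusted p = 0.000577, edgeR's quasi-likelihood test). *Slc31a2*, its intracellular relative, was at 14.3 and 14.0 FPKM. Of 8 copper-handling partners tested, 2 rose and none was called. One of these was *Atp7a*, the copper pump that exports copper from ECs toward the brain, which rose by 0.67 ± 0.09, with 3948, 3880, 3234 and 3164 normalized counts in Mutant and 2107, 2135, 2194 and 2523 in Wild type libraries. The transcript of the importer was thus lower and that of the pump higher in every Mutant library.

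Of the 3 magnesium carriers of Slc41, 2 rose. *Slc41a1* (chromosome 1, 131827493 to 131848865, plus strand), a sodium-magnesium exchanger of the plasma membrane, had 6621, 5402, 4895 and 4841 normalized counts in Mutant and 3349, 3460, 3274 and 3518 in Wild type libraries, a log2 fold change of 0.68 ± 0.10. *Slc41a2* was called higher from a low level, with 162, 90.4, 85.1 and 141 against 22.1, 20.6, 36.2 and 48.4 normalized counts (1.91 ± 0.32). The groups of both genes were apart. *Slc41a3* lay between 44.1 and 75.2 normalized counts in Mutant and between 35.8 and 63.0 in Wild type libraries, which overlap. Of 10 magnesium partner genes tested, 2 rose and 3 fell without the fold limit. Of those that fell, 2 were called lower, the channel *Trpm6* (-1.19 ± 0.17) and *Cnnm2* (-1.03 ± 0.14), and none was called higher.

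Of the 7 cation-chloride cotransporters and relatives of Slc12 tested, 2 rose, 1 of them past the fold limit, and none fell. Among all genes, 21.5% rose and 22.9% fell. *Slc12a2*, NKCC1, which brings sodium, potassium and chloride into cells, had 8386, 7679, 7539 and 9198 normalized counts in Mutant libraries and 3076, 3500, 4243 and 4320 in Wild type libraries. The 4 Mutant values all lay above the 4 Wild type values, and the log2 fold change was 1.12 ± 0.12 (adjusted p = 5.66e-05, edgeR's quasi-likelihood test). *Slc12a4*, KCC1, a potassium-chloride cotransporter, rose by 0.51 ± 0.08, and the most abundant KCC, *Slc12a7*, was at 29.8 ± 2.54 FPKM in Mutant and 29.1 ± 2.90 in Wild type ECs. *Slc12a5*, the neuronal KCC2, was at 0.48 and 0.38 FPKM. Kinases of the WNK and SPAK pathway phosphorylate these carriers. Of 11 genes of that pathway tested, not all of them kinases, 5 rose and 2 fell. Only *Klhl3*, an adaptor for degradation of WNK kinases, was called, and it was higher (1.47 ± 0.19). *Stk39*, SPAK, rose by 0.46 ± 0.11, whereas *Wnk1* and *Oxsr1* had 11519 ± 237 and 3089 ± 467 normalized counts in Mutant against 11476 ± 641 and 2587 ± 116 in Wild type ECs.

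Pumps that make the sodium and calcium gradients gave 4 genes called lower of 18 tested and none called higher, and 3 rose and 5 fell without the fold limit. Among all genes, 8.05% were called lower and 44.4% rose or fell. They included *Atp1b1* (-1.33 ± 0.24), *Atp2b2* (-1.22 ± 0.21) and *Atp2b3* (-2.34 ± 0.72), of which the last 2 are calcium pumps best known from neurons and had group means between 21.9 and 135 normalized counts. Neuronal markers summed to between 667 and 1016 normalized counts in Mutant and between 1205 and 2782 in Wild type libraries, and the part of neurons in these falls was not tested. The adjusted p of *Atp2b3* was over 0.05 in 4 of 15 other fits.

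Of the 10 Slc4 genes tested, mostly bicarbonate carriers, 5 rose and 3 fell, and *Slc4a1ap*, which is no transporter, was among those that rose. *Slc4a7* (chromosome 14, 14703025 to 14799943, plus strand), the sodium-bicarbonate cotransporter NBCn1 and the most abundant of the family, had 3008, 3125, 2465 and 3984 normalized counts in Mutant and 1322, 1506, 1633 and 2033 in Wild type libraries. Its log2 fold change was 0.96 ± 0.16, just under the fold limit. *Slc4a2*, the chloride-bicarbonate exchanger AE2, rose by 0.36 ± 0.08, and it shares 13.7% of its exon length with *Fastk* on the opposite strand. *Slc4a8*, a sodium-driven chloride-bicarbonate exchanger, and *Slc4a11*, an ammonia and proton carrier of the corneal endothelium, were called higher at low levels, with 240, 138, 120 and 351 against 73.5, 33.8, 68.1 and 50.5 normalized counts and with 55.6, 73.9, 71.8 and 91.2 against 17.5, 19.7, 19.0 and 32.6. The groups did not overlap in either gene. *Slc4a1ap*, which shares only part of its name with the family, rose by 0.74 ± 0.13.

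The 2 members of Slc4 called lower mark other cells of the brain and blood as well. *Slc4a1*, band 3 of the red cell membrane, had 85.9, 114, 68.5 and 74.7 normalized counts in Mutant and 232, 263, 144 and 190 in Wild type libraries (-1.28 ± 0.23), and 6 of 7 red blood cell markers tested were called lower in the same libraries. *Slc4a4*, the sodium-bicarbonate cotransporter NBCe1 of astrocytes, had 110, 178, 217 and 163 against 365, 401, 321 and 328 (-1.08 ± 0.19). Of 8 astrocyte markers, 2 fell and 1 rose, *Gja1*, which ECs also express and which made up most of their sum. That sum was between 18796 and 22418 normalized counts in Mutant and between 12526 and 14560 in Wild type libraries. The median log2 fold change of the 8 markers was -0.59. *Slc4a10* and *Slc4a5*, carriers of the choroid plexus, overlapped between groups and were highest in Wild type replicate 3, at 382 and 187 normalized counts. That library also had the highest sum of choroid plexus markers, 18808 beside 3657 to 7686 in the other libraries. The part of these cells in the values of the 4 genes was not tested.

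**Figure D5:**
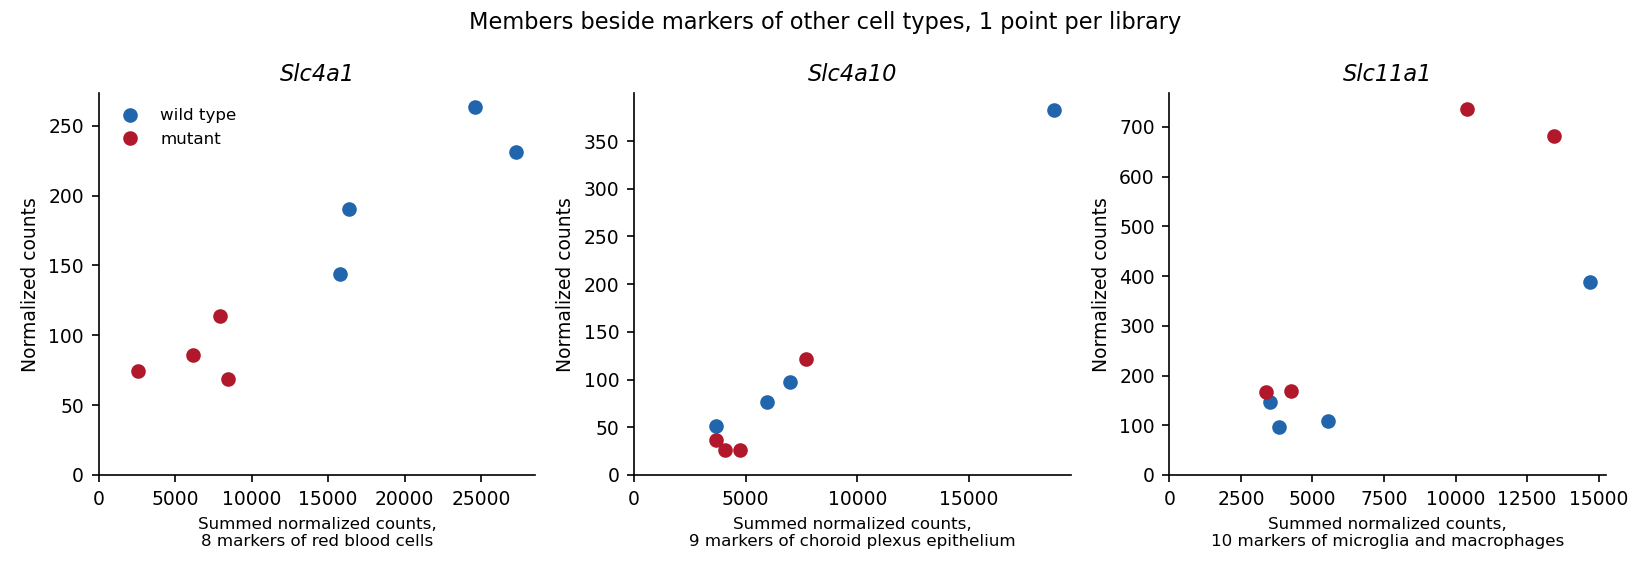
Normalized counts of *Slc4a1*, *Slc4a10* and *Slc11a1* in each library against the summed normalized counts of red blood cell, choroid plexus and microglia and macrophage markers in it (linear axes, 1 point per library). *Slc4a1* and its markers are lower in all 4 Mutant libraries, *Slc4a10* is highest in the library with the highest choroid plexus sum, and *Slc11a1* is high in libraries of both groups with high marker sums.

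Enzymes and channels that work with bicarbonate carriers gave 3 genes called higher and 3 lower of 15 tested, beside 5.90% and 8.05% of all genes. *Car4*, the carbonic anhydrase of the brain capillary surface, had 12774, 11166, 9074 and 9802 normalized counts in Wild type and 709, 2011, 2973 and 586 in Mutant libraries, a log2 fold change of -2.77 ± 0.46. Its Mutant replicates 1 and 4 were lowest, as for *Tfrc* and *Slc39a10*. *Car14* (-1.34 ± 0.27) and *Car12* (-1.56 ± 0.54) were also lower, although the *Car12* groups overlapped and its adjusted p was over 0.05 in 5 of 15 other fits. The cytosolic *Car13* rose from 27.4 ± 14.8 to 204 ± 73.3 normalized counts, and the surface enzyme *Car9* (1.08 ± 0.30) and the chloride and bicarbonate channel *Cftr* (2.08 ± 0.30) were called higher from means of 30.5 and 10.2 normalized counts in Wild type ECs.

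Of the 11 Slc9 genes tested, 1 rose and 4 fell, and the falls included both scaffolds named after the sodium-proton exchangers. *Slc9a3r2* (chromosome 17, 24639282 to 24650305, minus strand), NHERF2, had 3625, 5280, 5327 and 3604 normalized counts in Mutant libraries and 13752, 13770, 9712 and 11055 in Wild type libraries. All Mutant libraries were far under all Wild type libraries, and the log2 fold change was -1.44 ± 0.17, 2.71-fold lower (adjusted p = 1.00e-04, edgeR's quasi-likelihood test). *Slc9a3r1*, NHERF1, fell by 1.08, from 20.1 ± 3.03 to 9.54 ± 2.10 FPKM. *Slc9a3* itself, the exchanger they bind in kidney and gut, lay outside the normalized set with 44 reads in all. *Slc9a7*, NHE7 of the trans-Golgi network, was called higher, with 121, 100, 70.7 and 92.9 against 34, 32.8, 58.6 and 28.4 normalized counts (1.31 ± 0.27). *Slc9a8* had 578, 610, 651 and 633 against 763, 727, 680 and 715 normalized counts (-0.22 ± 0.08), but its adjusted p was over 0.05 in 10 of 15 other fits.

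Calcium exchangers were low in these ECs. *Slc8b1*, the sodium-calcium exchanger of mitochondria, was the most abundant at 9.82 ± 1.53 FPKM in Mutant and 6.76 ± 0.28 in Wild type ECs and rose by 0.54 ± 0.11. The plasma membrane exchanger *Slc8a1* lay between 191 and 253 normalized counts in Mutant and between 200 and 303 in Wild type libraries. *Slc24a1*, a potassium-dependent exchanger known from rod photoreceptors, was called higher, with 240, 200, 218 and 314 against 90, 66.6, 89.7 and 114 normalized counts (1.44 ± 0.20). The neuronal *Slc24a2* had 38 reads at most in a library.

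Of the anion carriers of Slc26, 2 of 4 tested rose and none fell. *Slc26a2*, the sulfate transporter that supplies sulfation of matrix proteoglycans, had 3381, 3063, 2967 and 3437 normalized counts in Mutant and 1539, 1622, 1798 and 1995 in Wild type libraries (0.89 ± 0.09, adjusted p = 5.24e-05, edgeR's quasi-likelihood test). The 2 groups were clearly apart although the change was under the fold limit. The sodium-bile acid family Slc10 held the member with the highest fold change, which had the fewest reads of the 18 called. *Slc10a6*, a transporter of sulfated steroids, had 38, 29, 18 and 18 reads in Mutant libraries and 3, 7, 1 and 3 in Wild type libraries, without scaling. Its log2 fold change was 3.06 ± 0.54, with a mean of 0.46 FPKM in Mutant ECs. *Slc10a3*, the most abundant of the family at 4.41 and 4.23 FPKM, shares part of its exons with *Ubl4a*, and its log2 fold change of 0.06 had a 95% interval from -0.22 to 0.34.

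The 18 members called were refitted in 15 other ways, with other normalizations, filters, a block, DESeq2 or 1 library left out. The 17 that were tested in all 15 kept an adjusted p under 0.05 in each, and 13 of them also kept the fold limit. *Slc10a6* was too low to be tested under the filter of 1 CPM in 4 libraries and kept both in the other 14. In 12 of the 18 (66.7%), Mutant replicates 1 and 4 were the 2 libraries farthest from the Wild type libraries, beside 45.4% of all genes called.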

How the data were processed

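Brain ECs of 4 Mutant and 4 Wild type pups were sequenced as poly(A)-selected RNA, 1 library each, grouped by the sample titles. The authors used Trimmomatic for trimming and STAR for mapping to GRCm38, and deposited whole-number counts per gene without normalization. The authors also deposited a normalized signal, which is the counts divided by 1 DESeq2 size factor per library (100% whole reads when multiplied back, tolerance 0.01). It was used only to define the gene set. The counting program, annotation release, use of strand and treatment of reads with several places are not given in the sources used here, so overlapping genes are uncertain. Symbols came from GENCODE vM21 (49056 of 49315 identifiers), and gene positions and lengths from the deposited count tables.

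Counts were filtered with filterByExpr (minimum count 10), scaled by TMM and compared with glmQLFit and glmQLFTest in edgeR 4.0.16 (R 4.3.3). Alternatives were DESeq2 1.42.0, other scalings, filters, blocks, a fold limit of 0.5 and each library left out. The code was tested on simulated data. The members and the partner and marker lists were chosen with earlier results of these data known. Members named with values were all those called, those with an adjusted p under 0.05 and a mean of at least 500 normalized counts, the most abundant of each family, and those flagged in the closing section. Other members are given by level or count. Partner genes named were those called and a short fixed list, and *Fth1*, *Ftl1* and *Ank* were added after their values were seen. A few genes of the set and the lists are counted but not reported singly here.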

Additional observations from a re-analysis of the deposited data

Results flagged for a closer look

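Of 130 groups of 4 libraries looked at for the members and partner genes named, 6 held 1 library far from the other 3 by Dixon's criterion, where chance gives about 1 in 20. Wild type replicate 3 was low for *Slc31a1*, at 9885 normalized counts beside 11470 to 11599 in the other 3 Wild type libraries, for *Slc39a8*, at 14262 beside 15910 to 16240, and for *Flvcr2*, at 4860 beside 5734 to 5773. In each case it lay on the side of the Mutant libraries but above them. Wild type replicate 4 was high for *Slc4a11*, at 32.6 beside 17.5 to 19.7, and for *Slc4a1ap*, at 561 beside 434 to 444. Mutant replicate 3 was high for *Enpp1*, at 292 beside 184 to 194. Without the library concerned, each of the 6 genes kept its direction and an adjusted p under 0.05, and *Enpp1* fell under the fold limit at 0.92.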

How the results depend on the processing

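With edgeR, the counts of members called (12 higher, 6 lower) changed by over 1.5 times under a fold limit of 0.5 on the log2 scale, where 20 were higher and 12 lower and 16 partner genes were higher. Leaving out each library in turn gave 10 to 13 members higher and 5 to 9 lower, and 4 to 8 partner genes higher, with 4 without Mutant replicate 3. Members that lost the fold limit were *Slc30a4* (0.995 with upper quartile scaling, 0.994 without Mutant replicate 4), *Slc20a2* (0.970, 0.966 and, without Wild type replicate 4, 0.984), *Slc4a4* (-0.91 without Mutant replicate 1) and *Slc9a3r1* (-0.94 without Mutant replicate 4). Changes of sign came in genes near 0, namely *Slc10a3* (-0.0032 with upper quartile scaling, and -0.012 to 0.132 with 1 library left out, lowest without Wild type replicate 3) and *Wnk1* (-0.0568 with upper quartile scaling, -0.00087 and -0.0013 without Wild type replicates 1 and 3, and up to 0.040 without another). The cause was not tested. Of the other fits of members named, 542 kept direction and side of the threshold and 10 lost the threshold, all of *Slc9a8*. Of those of partner genes, 391 kept both, 17 lost the threshold (*Hmox1*, *Car12*, *Atp2b3*) and 9 gained it (*Mt1*, *Mt2*, *Oxsr1*).

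Same-numbered libraries share a label string, and the study matched pups within litters, but no label says that a number or string marks a litter. The study's example of a litter has as many pups of each group as the largest string. The correlations of same-numbered deviations were 0.20, 0.21, 0.29 and 0.024, and Mutant replicate 4 went best with Wild type replicate 3 (0.38). Such correlations cannot decide which pups were littermates. The main test used no block because the study's methods name none. With the replicate number as a block, 13 members were called higher and 8 lower, *Mt1* and *Mt2* passed the threshold and *Slc9a8* lost it. With the label string as a block, 13 were higher and 7 lower, and *Mt1*, *Mt2* and *Oxsr1* (0.0435) passed. *Slc10a6*, with at most 38 reads in a library, could not be tested under the filter of 1 CPM.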
